A study of Mus musculus with 2 samples.

Results

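Brain endothelium and the blood-brain barrier were described here through 36 genes of junctions, transport, vessel signalling, transcription and the endothelial surface, chosen by symbol from a fixed list and matched by Ensembl identifier, of 43346 genes in the tables. All 36 were found. Total RNA depleted of ribosomal RNA, longer than 200 nt, was sequenced in stranded paired-end libraries with spike-in RNAs. The only group, with n = 2 libraries, was newborn forebrain of strain B6NTac;B6NCrl/Lap at an age of 0 days, male and female mice pooled. Replicate 1 was an isolate from 15 mice, the pool size of replicate 2 is not given in the sources used here, and one donor identifier is shared by both. No allele, treatment or reference tissue enters the design, so the measurements are levels of genes within the tissue and ratios of replicate 1 over replicate 2. Each SD covers the spread between these isolates, which may be technical.

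The endothelial cells of brain capillaries are sealed by tight junctions and carry few pores, so nutrients reach the brain through dedicated transporters while efflux pumps return many other compounds to the blood. Wnt ligands made by neural cells act on these endothelial cells to install the barrier, through beta-catenin and LEF/TCF factors. VEGF and angiopoietin receptors guide vessel growth, and SOX and ETS factors maintain endothelial identity. Whole forebrain was sampled, so these levels depend both on how many endothelial cells it held and on how much RNA each made, and fewer cells of a type and less RNA per cell cannot be told apart. Tjp1, Lsr, Slc7a5 and Lef1 are known in other cells of the brain as well. The cells that made the RNA of these and of the other members, Apcdd1 included, were not resolved.

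The libraries held 62516003 expected counts in replicate 1 and 65912060 in replicate 2, and each member had between 80 and 7452 counts in a library. Levels are given in coding TPM, the usual TPM (a transcript abundance corrected for length) rescaled so that protein-coding genes alone make up the full TPM total, which also corrects for noncoding RNA. Protein-coding genes held 69.3% of counts in replicate 1 and 77.5% in replicate 2. All 36 members reached 1 coding TPM in both libraries, as did 63.3% of 21474 protein-coding genes, and 20 members reached 10, as did 45.9%. The median member stood at 11.6 coding TPM in replicate 1 and 16.0 in replicate 2 (mean 13.8 ± 3.18, SD, n = 2). The median of the 13596 protein-coding genes that reached 1 was 27.0. The members were thus all detectable and mostly below the middle of the expressed genes. The genes Cldn5, Apcdd1 and Slc7a5, held 40.1% of the members' summed level. For neural tissue, 6 neuronal genes had median levels of 359.9 coding TPM in replicate 1 and 328 in replicate 2. The 5 radial glial genes had 204 and 224.7 in the same order. These lists do not separate forebrain from other neural tissue, so the forebrain label itself was not tested.

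**Figure D1:**
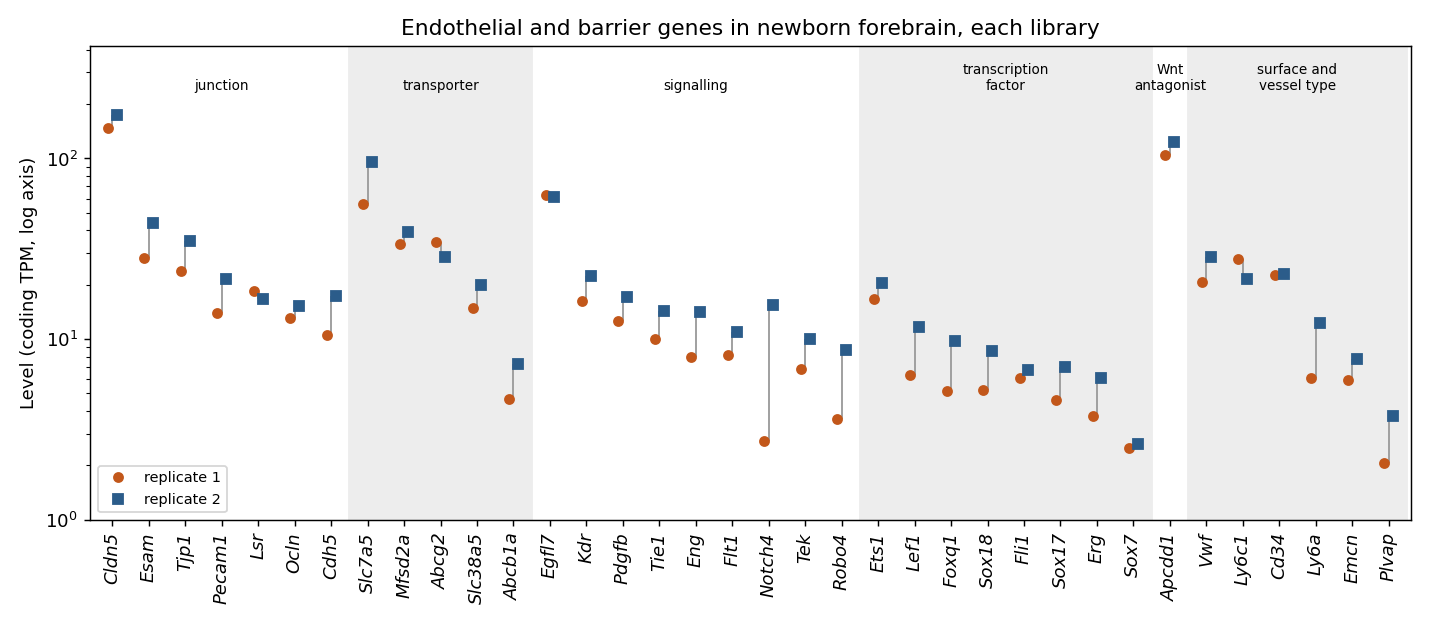
Level of each of the 36 genes in coding TPM (log axis), grouped by role, with circles for replicate 1 and squares for replicate 2 joined by a line. Cldn5 and Apcdd1 are above 100 in both libraries, Sox7 and Plvap are near the bottom, and the longest line belongs to Notch4.

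Junction genes were led by Cldn5 (ENSMUSG00000041378.1, mm10 chromosome 16, 18776847 to 18778262), the main claudin of brain endothelial tight junctions and the highest member. It had 148 coding TPM in replicate 1 and 175 in replicate 2 (161 ± 19.0, SD, n = 2), which placed it 1052nd among protein-coding genes, in the top 4.9%. Its partner Ocln, the tetraspan protein occludin, had 13.1 coding TPM in replicate 1 and 15.2 in replicate 2. Within a library Cldn5 exceeded Ocln by a TPM ratio of 11.2 in replicate 1 (bounds 8.85 to 12.1) and 11.52 in replicate 2 (9.93 to 12.3). The order of this pair was thus the same in both isolates, with bounds that overlap. Here and below, bounds of a gene ratio divide the deposited lower TPM bound of one gene by the upper bound of the other, and the reverse. They are the widest range that the deposited bounds allow. Lsr, angulin-1 of the tricellular junctions, had 18.5 coding TPM in replicate 1 and 16.7 in replicate 2. Tjp1, the scaffold ZO-1 that ties junctions to actin, had 23.9 coding TPM in replicate 1 and 34.96 in replicate 2. Of these tight junction genes, Lsr alone was higher in replicate 1 by level.

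Adhesion genes of the endothelial cell border followed. Esam, an immunoglobulin-like adhesion molecule, had 28.1 coding TPM in replicate 1 and 43.9 in replicate 2. Pecam1, the platelet and endothelial adhesion molecule CD31, had 14.0 coding TPM in replicate 1 and 21.6 in replicate 2. Cdh5, the VE-cadherin of adherens junctions, had 10.6 coding TPM in replicate 1 and 17.3 in replicate 2. All 3 were lower in replicate 1, and the median of the 7 junction genes was 17.8 coding TPM.

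Tjp1 RNA was divided between forms with and without a known cassette exon, so the exon is printed here. Transcript Tjp1-201, with 27 exons, made up 50.9% of Tjp1 TPM in replicate 1 and 51.9% in replicate 2. Tjp1-202, of 28 exons, includes the cassette and held 41.0% in replicate 1 and 48.1% in replicate 2. Both forms were therefore abundant in both isolates, and a short noncoding form, Tjp1-203, took 8.07% in replicate 1 and 0% in replicate 2. The cassette spans chr7:65314093-65314332 on the minus strand and adds 240 coding bases, or 80 codons, in frame. Its sequence, from the GENCODE M21 transcripts on mm10, is given 5′ to 3′ in lower case throughout, since all of it belongs to the cassette. Going by their coding lengths of 5058 bases for Tjp1-201 and 5238 for Tjp1-202, the forms differ elsewhere too.
Tjp1 cassette exon: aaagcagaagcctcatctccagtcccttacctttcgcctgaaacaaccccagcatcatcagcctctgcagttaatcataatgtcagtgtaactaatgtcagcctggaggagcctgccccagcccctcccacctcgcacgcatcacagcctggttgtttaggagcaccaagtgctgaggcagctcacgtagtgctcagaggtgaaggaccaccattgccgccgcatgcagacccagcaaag

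Transporter genes had the highest median of the roles with several members, 31.4 coding TPM. Slc7a5 (ENSMUSG00000040010.10, chromosome 8, 121881150 to 121907694), the LAT1 carrier of large neutral amino acids, had 56.3 coding TPM in replicate 1 and 95.6 in replicate 2. Mfsd2a, which carries lysophosphatidylcholine with omega-3 fatty acids into the brain and restrains transcytosis, had 33.7 coding TPM in replicate 1 and 39.2 in replicate 2. Slc38a5, a carrier of glutamine and other neutral amino acids, had 14.8 coding TPM in replicate 1 and 19.98 in replicate 2. These nutrient carriers were all lower in replicate 1, by the widest margin for Slc7a5.

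The efflux pumps differed in level. Abcg2, the breast cancer resistance protein, had 34.4 coding TPM in replicate 1 and 28.5 in replicate 2. Abcb1a, the P-glycoprotein of mouse brain capillaries, had 4.65 coding TPM in replicate 1 and 7.26 in replicate 2. The TPM ratio of Abcb1a over Abcg2 was 0.135 in replicate 1 (bounds 0.108 to 0.175) and 0.255 in replicate 2 (0.203 to 0.299). Abcg2 was thus the more abundant pump transcript in both libraries, and the bounds of the ratio did not overlap between them. Abcg2 counts hardly differed, with 1092 in replicate 1 and 1309 in replicate 2, and its leading transcript Abcg2-202 held 34.2% in replicate 1 and 55.9% in replicate 2, so its level also follows how reads were divided among transcripts. The neighbouring paralog Abcb1b, whose coding sequence is 87.7% identical to that of Abcb1a over 3840 aligned positions, had 0.517 coding TPM in replicate 1 and 0.454 in replicate 2. Abcb1a exceeded it by 9.0 (6.33 to 14.1) in replicate 1 and 16.0 (10.9 to 23.6) in replicate 2. Reads shared by these paralogs left Abcb1a with a posterior SD of 1.21 counts in replicate 1 and 0.67 in replicate 2, against about 489 and 784 counts.

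Receptors of the VEGF family were both present. Kdr, the main signalling receptor VEGFR2, had 16.2 coding TPM in replicate 1 and 22.3 in replicate 2. Flt1 (ENSMUSG00000029648.9, chromosome 5, 147561604 to 147726011), VEGFR1, which binds VEGF tightly and signals weakly, had 8.12 coding TPM in replicate 1 and 10.9 in replicate 2. Kdr exceeded Flt1 by a TPM ratio of 1.99 (bounds 1.15 to 2.13) in replicate 1 and 2.04 (1.09 to 2.14) in replicate 2. The pair kept the same order in each isolate, although posterior mean TPM lowers the mean log2 ratio to 0.67 from 1.01.

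About equal parts of Flt1 RNA came from transcripts for the membrane receptor and for a soluble form that lacks the membrane and kinase parts and traps VEGF. The membrane form Flt1-202, with 30 exons and 4002 coding bases, made up 54.5% of Flt1 TPM in replicate 1 and 45.9% in replicate 2. The soluble form Flt1-203, of 13 exons and 2067 coding bases, held 45.5% in replicate 1 and 54.1% in replicate 2. The order of the forms was opposite in the isolates, with 487 counts of the soluble form against 646 of the membrane form in replicate 1, and 861 against 799 in replicate 2. Their first 1972 coding bases are shared. After that point the soluble form reads on past the exon end for 95 coding bases up to its stop codon, at chr5:147639130-147639254 on the minus strand with the 30 shared bases before it. The stretch of the membrane form runs over exon boundaries within chr5:147634429-147639254. The sequences below, from the GENCODE M21 transcripts on mm10, are shown 5′ to 3′ because they separate the forms, with capitals after the point of divergence.
Flt1-203: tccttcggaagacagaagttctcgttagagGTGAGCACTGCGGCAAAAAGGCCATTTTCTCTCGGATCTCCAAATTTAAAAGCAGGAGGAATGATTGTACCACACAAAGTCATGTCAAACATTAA
Flt1-202: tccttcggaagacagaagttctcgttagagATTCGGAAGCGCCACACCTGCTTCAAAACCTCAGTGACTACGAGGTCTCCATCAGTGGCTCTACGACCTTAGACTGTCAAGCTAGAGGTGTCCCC

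Angiopoietin receptor genes had similar levels. Tek, the receptor TIE2, had 6.87 coding TPM in replicate 1 and 9.99 in replicate 2. Tie1, its orphan partner, had 10.04 coding TPM in replicate 1 and 14.4 in replicate 2. Tek stood below Tie1 by TPM ratios of 0.684 (bounds 0.593 to 0.889) in replicate 1 and 0.694 (0.618 to 0.923) in replicate 2, so the order was stable between the isolates. Eng, a co-receptor of the TGF-beta family, had 7.97 coding TPM in replicate 1 and 14.1 in replicate 2. Pdgfb, the ligand by which endothelium recruits pericytes, had 12.6 coding TPM in replicate 1 and 17.02 in replicate 2. Both were lower in replicate 1. Egfl7, a secreted protein of the vessel matrix and host of the miRNA miR-126, was the highest signalling gene, with 62.5 coding TPM in replicate 1 and 61.4 in replicate 2. Transcripts annotated as retained introns held 26.2% of its TPM in replicate 1 and 25.5% in replicate 2.

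Robo4 and Notch4 differed most between the libraries. Robo4 (ENSMUSG00000032125.15, chromosome 9, 37401897 to 37415115), an endothelial receptor of the roundabout family that stabilises vessels, had 287 counts in replicate 1 and 742 in replicate 2, or 3.62 and 8.72 coding TPM in the same order. Notch4 (ENSMUSG00000015468.10, chromosome 17, 34564268 to 34588503), the endothelial Notch receptor, had 297 counts in replicate 1 and 721 in replicate 2. Its coding TPM was 2.73 in replicate 1 and 15.4 in replicate 2. Its deposited bounds, rescaled likewise, were 3.60 to 17.7 in replicate 1 and 13.97 to 43.4 in replicate 2. These bounds overlap, and the replicate 1 level lies below its own. The levels of Notch4 therefore differed more than its counts, but its bounds do not separate the libraries. Its short noncoding transcripts Notch4-210 and Notch4-203, of 619 and 356 nt, took 23.7% and 0% of its TPM in replicate 1, and 35.7% and 35.99% in replicate 2, from 5.26 and 0 counts in replicate 1 and 46.1 and 11.7 in replicate 2. Few counts on a short transcript give a large TPM. The coding form Notch4-201 had 2.07 coding TPM in replicate 1 and 4.36 in replicate 2, and the mean ± SD of the gene, 9.06 ± 8.95, has little precision.

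Transcription factor genes had the lowest median of the roles, 6.66 coding TPM. Of the SoxF factors, which specify endothelial and arterial identity, Sox17 had 4.58 coding TPM in replicate 1 and 7.04 in replicate 2. Sox18 had 5.24 coding TPM in replicate 1 and 8.58 in replicate 2. Sox7 had 2.51 coding TPM in replicate 1 and 2.63 in replicate 2, the lowest member by mean, from 168 and 192 counts. The bounds of the Sox17 to Sox18 ratio spanned 1 in both libraries (0.686 to 1.41 in replicate 1 and 0.660 to 1.18 in replicate 2), so these bounds did not order the genes. A retained-intron transcript, Sox17-205, held 31.1% of Sox17 TPM in replicate 1 and 21.8% in replicate 2.

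Of the ETS factors, Ets1 had 16.8 coding TPM in replicate 1 and 20.4 in replicate 2. Fli1 had 6.06 coding TPM in replicate 1 and 6.76 in replicate 2. Erg, which keeps endothelial genes active, had 3.77 coding TPM in replicate 1 and 6.13 in replicate 2. Ets1 was the highest of the 3 in both libraries. Fli1 exceeded Erg by 1.61 (1.17 to 2.18) in replicate 1, while in replicate 2 the ratio of 1.10 had bounds of 0.866 to 1.36, which include 1. Foxq1, a forkhead factor enriched in brain endothelium, had 5.17 coding TPM in replicate 1 and 9.81 in replicate 2.

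The members of the Wnt pathway differed widely in level. Lef1, the nuclear partner of beta-catenin, had 6.35 coding TPM in replicate 1 and 11.6 in replicate 2. Apcdd1 (ENSMUSG00000071847.8, chromosome 18, 62922231 to 62961179), a membrane antagonist of Wnt signalling that is itself induced by it, had 105 coding TPM in replicate 1 and 123 in replicate 2 (114 ± 13.0, SD, n = 2). It was the second highest member in both libraries. Lef1 RNA was divided, with 38.4% of TPM on Lef1-204 in replicate 1 and 33.6% in replicate 2. Lef1-203, of 996 coding bases against 1155 for Lef1-204, held 23.3% in replicate 1 and 29.3% in replicate 2. Lef1-202 held 32.6% in replicate 1 and 14.1% in replicate 2, and Lef1-201 held 0% and 16.4% in the same order. The posterior SD of Lef1-202 was 55.4 on 145 counts in replicate 1 and 51.1 on 123 in replicate 2. That of Lef1-201 was 22.5 on 0 counts and 49.1 on 148 in the same order. Which form came second in each library was therefore not resolved.

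Surface and vessel-type genes spanned a wide range. Vwf, the clotting factor stored by endothelium of larger vessels, had 20.6 coding TPM in replicate 1 and 28.6 in replicate 2. Cd34, a sialomucin of vessels and blood progenitors, had 22.5 coding TPM in replicate 1 and 22.97 in replicate 2. Emcn, endomucin of capillaries and veins, had 5.91 coding TPM in replicate 1 and 7.81 in replicate 2. Of these, Cd34 differed least. Plvap, which forms the diaphragms of fenestrae and is lost from barrier vessels as they mature, had 2.07 coding TPM in replicate 1 and 3.77 in replicate 2, from 80 and 158 counts. Cldn5 exceeded Plvap by a TPM ratio of 71.5 (56.1 to 92.96) in replicate 1 and 46.3 (38.8 to 56.2) in replicate 2. The tight junction gene was therefore far above the gene of fenestrae in both isolates, with bounds that meet only at their edges.

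The Ly6 genes encode small lipid-anchored surface proteins of mouse endothelium and blood cells. Ly6c1 (ENSMUSG00000079018.6, chromosome 15, 75044018 to 75048830) had 27.8 coding TPM in replicate 1 and 21.4 in replicate 2, from 355 and 296 counts. Ly6a, known as Sca-1, had 6.06 coding TPM in replicate 1 and 12.3 in replicate 2, from 89 and 197 counts. Ly6c1 exceeded Ly6a by 4.59 (2.99 to 5.98) in replicate 1 and 1.74 (1.28 to 2.24) in replicate 2, so the order held while the ratio differed. Ly6c1 has a near copy, Ly6c2, known from monocytes, with 387 of 396 coding bases identical (97.7%). The copy Ly6c2 was given 5 counts in replicate 1 and 0 in replicate 2, and a count of 0 allows up to 3. The first 150 coding bases, which hold 6 of the 9 differences, are shown from the GENCODE M21 transcripts on mm10, 5′ to 3′ on the minus strand, with the differing bases in capitals. They lie over exons within chr15:75047390-75048511 for Ly6c1 and chr15:75110548-75111667 for Ly6c2. The deposited posterior SD of Ly6c1 was 0.12 counts in replicate 1 and 0 in replicate 2, so few reads were uncertain between the copies.
Ly6c1-201: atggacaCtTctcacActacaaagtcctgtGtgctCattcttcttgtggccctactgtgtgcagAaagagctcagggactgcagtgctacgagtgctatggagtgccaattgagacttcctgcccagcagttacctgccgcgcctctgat
Ly6c2-201: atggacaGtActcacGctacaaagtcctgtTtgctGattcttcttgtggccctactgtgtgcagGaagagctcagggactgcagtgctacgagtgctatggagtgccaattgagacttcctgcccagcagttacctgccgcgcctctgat

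Most members were lower in replicate 1 than in replicate 2. Ratios are log2 of replicate 1 over replicate 2, from rounded expected counts after TMM scaling with 0.5 added, and each 95% interval covers counting error and the deposited posterior SD only, since sequenced PCR copies cannot be told from separate molecules. With 1 library on each side there is no replicate check and no p. Of 36 members 28 were lower in replicate 1, as were 49.8% of the 17544 genes that averaged 10 counts or more. The median ratio was -0.34 over members and 0.00 over all genes, with quartiles of -0.60 and -0.05 over members and -0.26 and 0.27 over all genes. The interval lay below 0 for 26 members and for 33.4% of all genes, and above 0 for 5 members and 34.2% of genes. Read against all genes, the members were thus more often lower in replicate 1 by small amounts.

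Large differences were few. At 2-fold or more, 1 member was lower in replicate 1, against a background of 5.83% of genes, and 0 were higher, against 5.17%. That member was Robo4, with a ratio of -1.09 (SE 0.10, interval -1.29 to -0.89), or 47.0% of its replicate 2 value. Notch4 was just short of 2-fold at -0.999 (SE 0.10, interval -1.19 to -0.80). The background includes genes with fewer counts than any member. All 36 members averaged at least 100 counts. Among the 13681 genes that did so, scaled on their own, 2 members (Robo4 and Notch4) were past 2-fold lower, against 1.36% of genes. None was higher, against 1.41%. After Robo4 and Notch4 came Ly6a and Erg, each at -0.86, with SEs of 0.18 and 0.15. At 1.5-fold, 10 members were lower, against 11.2% of genes, namely these 4 with Foxq1 (-0.76), Eng (-0.73), Plvap (-0.70), Lef1 (-0.67), Vwf (-0.61) and Slc7a5 (-0.60). Of the 10, Robo4, Notch4 and Eng are among 9 signalling members, and Erg, Foxq1 and Lef1 among 8 transcription factors. Plvap, Vwf and Ly6a are among 6 surface genes, and Slc7a5 among 5 transporters. The other members of these roles, and all 7 junction genes, were not past 1.5-fold lower.

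**Figure D2:**
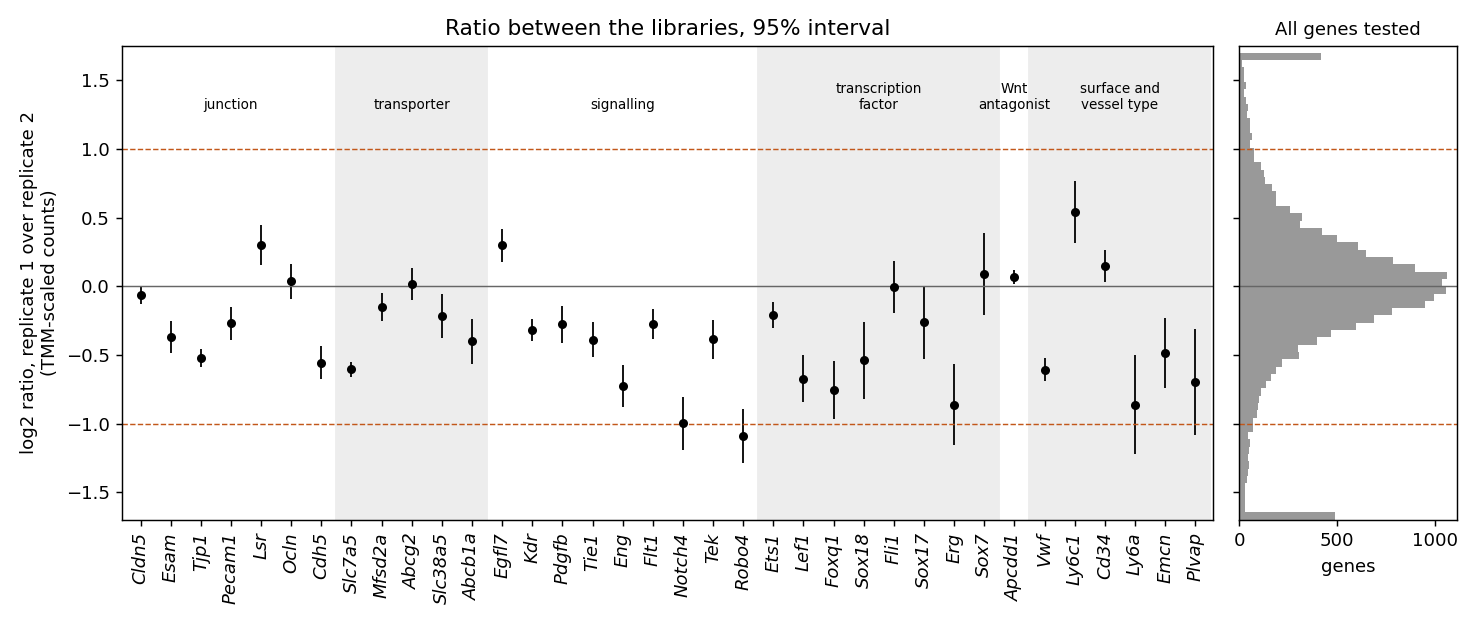
Log2 ratio of replicate 1 over replicate 2 for each member (points, bars are 95% intervals of counting and posterior error), beside the distribution over 17544 genes, whose end bars gather all more extreme ratios. Dashed lines mark 2-fold; 28 of the 36 members lie below 0 and only Robo4 lies past the lower line.

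The tilt was present in each role with several members. In replicate 1, 5 of 7 junction genes, 4 of 5 transporters, 8 of 9 signalling genes, 7 of 8 transcription factors and 4 of 6 surface genes were lower. The medians were -0.27 for junctions, -0.22 for transporters, -0.39 for signalling, -0.40 for transcription factors and -0.55 for surface genes. The ratios of Cldn5 (-0.07, SE 0.03) and Apcdd1 (0.07, SE 0.03), the most abundant members, were close to 0. The members with intervals above 0 were Ly6c1 (0.54, SE 0.11), Lsr (0.30), Egfl7 (0.30), Cd34 (0.15) and Apcdd1. Ly6c1 and Ly6a, neighbours on chromosome 15, thus moved in opposite directions.

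Scaling affects these signs. Dividing by library totals moved the median of all genes to -0.19 and coding TPM moved it to -0.15. The member median less that of all genes was -0.35 with TMM and with coding TPM. Library totals shift every gene by the same amount, so that difference could not change with them. Across 8 settings 27 members were lower in replicate 1 in each, and Egfl7, Lsr and Ly6c1 were higher in each. The same share over all genes was not computed. Except for coding TPM and removal of a trend with gene length, the settings shifted all members almost alike, so their agreement adds little. Egfl7 was only 0.03 with coding TPM and 0.01 with the length trend removed. The sign differed among settings for Abcg2, Apcdd1, Cd34, Fli1, Ocln and Sox7. Ratios also fell with gene length, by 0.17 per doubling over all genes averaging 100 counts or more, and removing that trend gave a member median of -0.28. Robo4 stayed past 2-fold in every setting.

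Other genes of vessels, grouped in lists, gave the setting for these values. Of 10 further pan-endothelial genes 8 were lower in replicate 1, with a median ratio of -0.36, and 1 was past 2-fold lower (Cyyr1, -1.18, a small membrane protein). Their highest levels were 42.9 ± 1.90 coding TPM for Ramp2, the adrenomedullin co-receptor, 30.8 ± 7.27 for Rasip1, which shapes vessel lumens, and 18.1 ± 4.83 for the lectin-like receptor Cd93. Their lowest was Myct1 at 0.712. The 10 further endothelial transcription factors had 7 lower, none past 2-fold in either direction, and a median of -0.27, with Ets2 at 23.2 ± 3.75 and Lmo2 at 21.1 ± 2.81 coding TPM. These lists therefore leaned the same way as the members.

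Arterial, venous and tip-cell genes held 7 of 10 lower in replicate 1, with a median of -0.39. The arterial ligand Efnb2 had 42.1 coding TPM in replicate 1 and 41.4 in replicate 2. The venous factor Nr2f2 had 21.2 coding TPM in replicate 1 and 44.9 in replicate 2, although neurons of the forebrain are known to use it as well. The list therefore held genes that hardly differed beside others that did. The tip-cell gene Esm1 had 11 counts in replicate 1 and 65 in replicate 2 (ratio -2.23, SE 0.46), and the kinase gene Bmx 63 and 24 in the same order (1.65, SE 0.34). Both are low, so their ratios are imprecise.

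The ligands and partners of the member receptors were present. Of 16 VEGF, angiopoietin and Notch partners all reached 1 coding TPM in both libraries, 11 were lower in replicate 1, none passed 2-fold in either direction, and the median ratio was -0.21. Vegfa, the ligand of Kdr and Flt1, had 68.5 coding TPM in replicate 1 and 90.9 in replicate 2, above both receptors. The co-receptors Nrp1 and Nrp2 averaged 63.0 ± 9.32 and 88.3 ± 38.3, and are also used by axons. The lowest was Flt4, the VEGF-C receptor, at 2.48 ± 0.476.

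All 14 genes of Wnt barrier signalling reached 1 coding TPM in both libraries, and 8 were lower in replicate 1, with a median of -0.09. Ctnnb1, beta-catenin itself, averaged 897.7 ± 172 coding TPM. The ligand Wnt7b had 58.0 coding TPM in replicate 1 and 49.8 in replicate 2, and Wnt7a had 18.2 and 19.7 in the same order. The target Axin2 averaged 31.0 ± 4.52. Tcf7l1, a repressor of the TCF family, was lowest at 1.54 ± 0.639, and was the only gene of this list past 2-fold (1.61, SE 0.36, from 56 counts in replicate 1 and 22 in replicate 2). The co-receptor genes Reck and Adgra2, through which Wnt7 reaches brain endothelium, had ratios of -0.74 and -0.55. These genes and Wnt7a were chosen for mention after their values were seen.

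Other barrier transport genes did not lean as the members did, with 5 of 11 lower in replicate 1 and a median of 0.07. Bsg, basigin, averaged 1000.5 ± 109 coding TPM, Tfrc, the transferrin receptor, 85.9 ± 27.7, and Slc2a1, the glucose carrier GLUT1, 71.0 ± 10.4. These are used by many cells. Slco1a4, an organic anion carrier of barrier vessels, had 260 counts in replicate 1 and 133 in replicate 2 (1.24, SE 0.15). Abcc4, an efflux pump, had 182 counts in replicate 1 and 522 in replicate 2 (-1.24, SE 0.12). So single transport genes differed in opposite directions, and the lowest was the thiamine carrier Slc19a3 at 1.04 ± 0.325. Of 10 other junction genes 5 were lower, none was past 2-fold in either direction and the median was 0.02, with Jam3 at 37.3 ± 4.60, Jam2 at 19.2 ± 3.31 and Cldn12 at 17.6 ± 0.774, down to Marveld2, tricellulin, at 1.501 ± 0.766.

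Markers of neighbouring cell types also differed between the isolates. Of 10 pericyte and smooth muscle genes 9 were lower in replicate 1, with summed levels of 191 coding TPM in replicate 1 and 249 in replicate 2, and Acta2 (-1.38) and Myh11 (-1.37), contractile genes of arterial muscle, past 2-fold. Of 8 meningeal fibroblast genes 7 were lower, with sums of 367 in replicate 1 and 932 in replicate 2, a median of -0.81, and Col1a1 (-2.57), Col1a2 (-1.79) and Lum (-1.19) past 2-fold. The lean of the members, a sum of 770.3 in replicate 1 and 981.9 in replicate 2, thus went with lower levels of mural and meningeal genes. The sums here and below are in coding TPM, where the median log2 ratio of all genes was -0.15. The ratios beside them are TMM-scaled, so the measures are on different scales. The part of these cells in the members' ratios was not tested.

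Erythroid genes differed in the opposite direction. All 5 erythroid genes past the count filter were higher in replicate 1, with a median of 0.71 and sums of 2511 in replicate 1 and 1812 in replicate 2, and Hbb-bt was past 2-fold (1.37). The 6 choroid plexus genes had 2 lower, a median of 0.38 and sums of 749 in replicate 1 and 482 in replicate 2, with Kcne2 past 2-fold (1.604). Most of these sums was Ttr, the thyroid hormone carrier, with 712.7 coding TPM in replicate 1 and 446.5 in replicate 2. Of 8 microglial and macrophage genes 3 were lower, with a median of 0.08 and Aif1 past 2-fold (1.07). The platelet markers Gp9 and Gp1ba had 0 counts in replicate 1 and 5 and 6 in replicate 2, while Pf4, also known from macrophages, averaged 33.4 coding TPM. Itga2b, the platelet integrin CD41, had 55 counts in replicate 1 and 59 in replicate 2, or 3.62 and 2.09 coding TPM in the same order. Platelets share Vwf and Pecam1 with endothelium, and their part in those levels was not tested. Lymphatic genes were mixed, with Ccl21a at 0 counts in replicate 1 and 7 in replicate 2 and a median ratio of -0.08 over the 3 others.

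**Figure D3:**
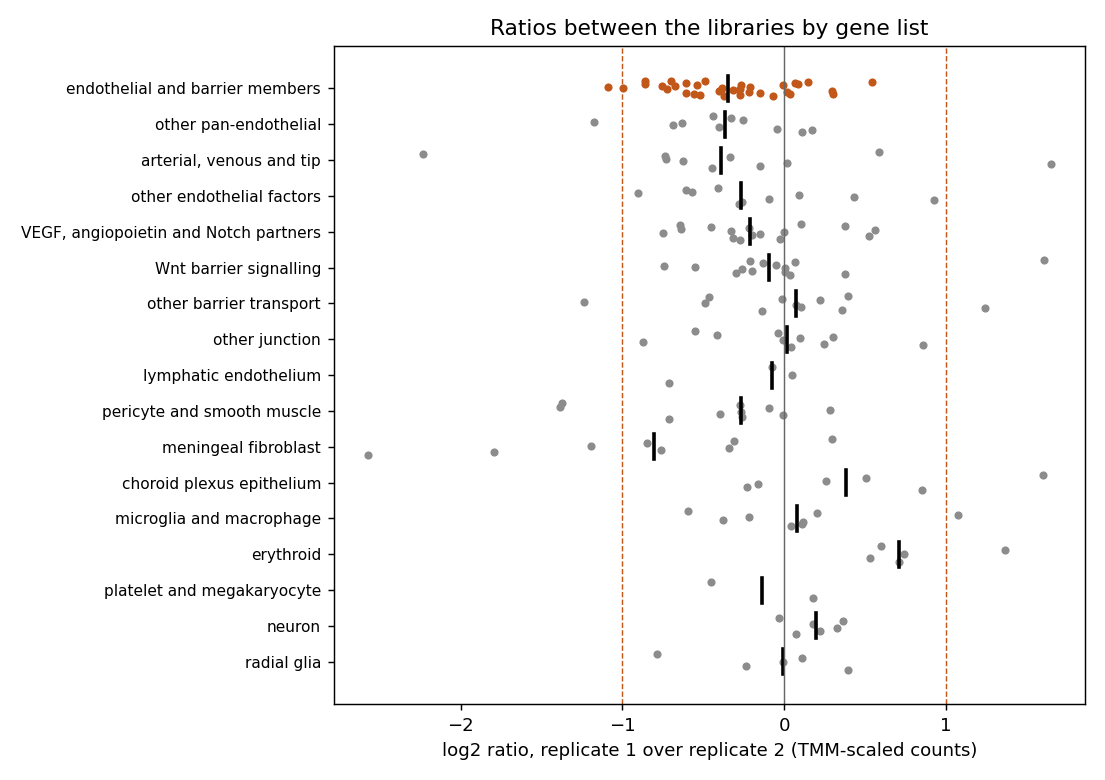
Log2 ratio of replicate 1 over replicate 2 for the members (coloured) and for each further list (grey), one point per gene past the count filter, with a bar at each list's median and dashed lines at 2-fold. The lists of pan-endothelial, arterial, venous and tip, and other endothelial factor genes have medians from -0.39 to -0.27, the lymphatic list is at -0.08, the meningeal list is lowest at -0.81 and the erythroid list highest at 0.71.

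Transcript makeup varied among the members. Of the 36, 7 have 1 annotated transcript and 29 have several, and the leading transcript was the same in both libraries for 23 of these 29. It differed for Flt1, Robo4, Notch4, Egfl7, Sox17 and Erg. In 18 of the 29 the leading transcript held over 50% of TPM in both libraries, among them Slc7a5-201 (100% in replicate 1 and 99.8% in replicate 2) and Kdr-201 (97.7% and 98.8% in the same order). In 10 members the form with the second highest mean share held at least 20% in both libraries. Cd34-201, with the longer coding sequence of 1149 bases, held 56.4% in replicate 1 and 74.5% in replicate 2, and Cd34-202, of 978 coding bases, 42.3% and 24.8% in the same order. Emcn-201, of 747 coding bases, held 70.0% in replicate 1 and 48.8% in replicate 2, and Emcn-202, of 786, held 27.5% and 45.3%. Ocln-201 and Ocln-202, which share the same coding length of 1566 bases, held 59.2% and 39.1% in replicate 1 and 76.0% and 24.0% in replicate 2. Tek-203 held 62.4% in replicate 1 and 68.0% in replicate 2. Vwf had an unnamed form of 8817 nt with 38.4% in replicate 1 and 42.2% in replicate 2. Vwf-203, of 8834 nt, held 0% and 8.25% in the same order. Posterior SDs were 285 and 283 counts for the unnamed form and 284 and 276.5 for Vwf-203, so their split was not resolved. The 456 nt fragment Vwf-209 held 30.1% in replicate 1 and 22.7% in replicate 2 from only 28.4 and 29.3 counts. Short reads allow only estimates of these shares.

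**Figure D4:**
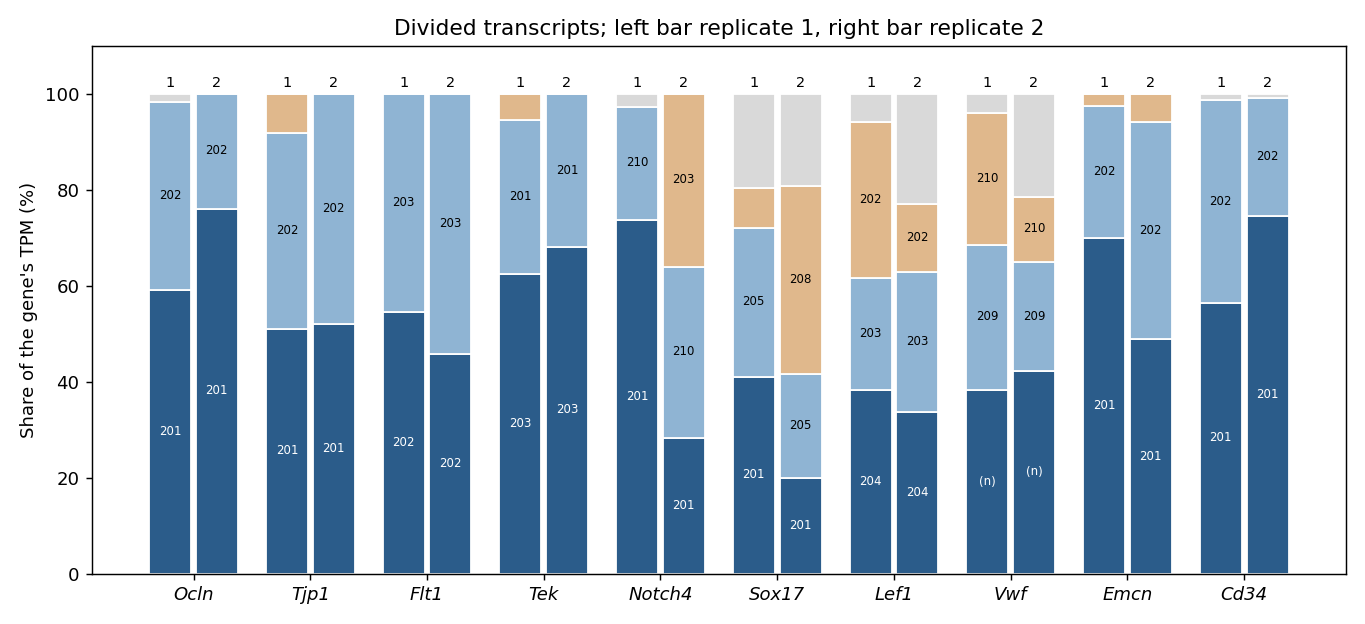
Share of the gene's TPM (%) held by annotated transcripts of the 10 members with divided transcripts, with replicate 1 as the left bar and replicate 2 as the right bar of each pair; numbers in the bars are transcript name endings, (n) is the unnamed Vwf transcript, and grey is the rest. Flt1 is split about evenly in both libraries, and Notch4 and Sox17 change most between them.

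Promoter letters of the members were near those of other genes. Windows from 250 bases before to 50 after the start were taken from RefSeq on GRCm38.p6, matching 21 of 36 members with 32 windows, and each motif was searched on both strands. The ETS core CCGGAA was in 9.38% of member windows and 14.9% of all 32851 windows, the Sox letters ACAATG in 12.5% and 12.6%, and the TCF/LEF letters CTTTGA in 18.8% and 16.0%. The FOX:ETS letters AACAGGAA were in 2 member windows (6.25%, Egfl7 and Emcn) and 2.65% of all. These matches describe the letters only.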

How the data were processed

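Total RNA of newborn forebrain was quantified by gene and transcript in 2 libraries. The authors deposited expected counts, TPM, FPKM, percent of the gene's expression per transcript, and, as further scores, posterior mean counts, posterior SDs and TPM interval bounds, per the file headers. TPM as deposited covers all features, noncoding RNA included. The build was mm10 with GENCODE M4, per a text file deposited with each sample. Which aligner and quantifier were used is not given in the sources used here. Symbols, biotypes and coordinates came from GENCODE M21, which matched 42462 of 43346 genes (98%). Mean fragment lengths implied by the tables were 248.7 nt in replicate 1 and 269.7 nt in replicate 2.

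Coding TPM multiplied TPM by 7.38 in replicate 1 and 4.54 in replicate 2, so that protein-coding genes hold the full TPM total. Expected counts were rounded, scaled with TMM factors (edgeR 4.0.16, R 4.3.3) and given 0.5 before log2 ratios, for genes averaging 10 counts or more, and a difference was called at 2-fold. Intervals used a z of 1.96. With 1 library on each side no p is given in the text. Alternatives were DESeq2 1.42.0 size factors, library totals, coding TPM with 0.1 added, posterior mean counts, no filter, a filter of 100, removal of the length trend, a 1.5-fold threshold, a binomial test with adjustment at 0.05, other units, a minimum transcript length of 500 nt and each replicate left out. Other steps used Python 3.11.15 with numpy 2.4.6, pandas 2.3.3, scipy 1.17.1, biopython 1.88 and matplotlib 3.10.9, and were tested on simulated data. The named genes were all members, of each further list mainly the 3 highest, the lowest and those past 2-fold, and transcripts of members whose second form held at least 20%. The members and the 16 further lists were chosen with earlier results of these data known.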

Additional observations from a re-analysis of the deposited data

How the results depend on the processing

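The median level was 13.8 in coding TPM, 2.55 in TPM as deposited and 4.96 in FPKM, and 22 members reached 1 TPM as deposited. The share of all protein-coding genes at that threshold was not computed. Leaving out each replicate gave medians of 11.6 to 16.0. With TMM, 1 member was past 2-fold lower in replicate 1, against 5.83% of all genes. Robo4 and Notch4 were the 2 with DESeq2 size factors (5.85% of genes), with no filter (11.2%) and with a filter of 100 counts (1.36%). With the length trend removed there were 2 (Robo4 and Ly6a, against 6.55%). Coding TPM gave 3 (7.55%), library totals 4 (7.73%) and the 1.5-fold threshold 10 (11.2%). Equal counts thus stand against different backgrounds. The cause was not tested beyond the looser threshold at 1.5-fold, and Notch4 lies at the 2-fold line. The median member ratio was -0.54 with library totals and -0.49 with coding TPM. Posterior mean TPM gave mean log2 ratios of 3.43 for Cldn5 over Ocln, 0.67 for Kdr over Flt1, -0.44 for Tek over Tie1 and -0.10 for Sox17 over Sox18, against 3.51, 1.01, -0.54 and -0.24, and the cause was not tested. The leading Vwf transcript held 54.7% among transcripts of at least 500 nt, against 40.3% among all. The other 77 alternative values differed by less than 1 SD between the libraries or their counting interval, or, for counts of genes, by at most 1.5 times, and 0 reversed. With n = 2, leaving out a replicate always moves a median level, gene ratio or transcript share by less than that SD. Those settings could not have been labelled otherwise and do not test stability. The spread between the libraries was wide for some. With 1 replicate left out, the share of Notch4-201 ran from 28.3 to 73.7%, that of Sox17-201 from 19.9 to 41.0%, the log2 ratio of Ly6c1 over Ly6a from 0.80 to 2.20 and that of Fli1 over Erg from 0.14 to 0.69. At 5 coding TPM 29 members were detected, and the share of all protein-coding genes there was not computed either. No paired analysis was possible because there is only 1 group. Low counts limit Plvap, Ly6a, Erg and Sox7 most.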
